A study of Mus musculus with 15 samples.

Results

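The effect of BAF knockdown on promoter nucleosomes of resting cells was examined in 3T3 fibroblasts, an established line of mouse embryonic fibroblasts. BAF-knockdown cells carried 1 stably integrated shRNA, delivered by a retroviral vector that also drives GFP, which targets a sequence shared by Brg1 (Smarca4) and Brm (Smarca2), and cells were sorted for high GFP. Control fibroblasts are labelled only as not knocked down. None of the cells compared here had received TNF-α. ChIP-MNase with an antibody against H3K4me1, a histone mark found around promoters and enhancers, gave 2 BAF-knockdown and 2 control libraries, 4 of the 15 libraries of the series. The measured regions were the 13559 high coverage promoters (52.4% of 25881 annotated promoters) with a coverage score above 100 in the promoter table. Of these, 13309 had at least 1 filled bin in each of the 8 single H3K4me1 libraries and entered the tests, and 250 did not.

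The BAF complex, the mammalian SWI/SNF remodeller, uses the ATPase Brg1 or Brm to slide or evict nucleosomes. At active promoters the TSS commonly lies in a nucleosome-depleted region (NDR), which is flanked by a −1 nucleosome upstream and by a phased array of +1, +2 and further nucleosomes downstream. Promoters of silent genes commonly lack such an arrangement, and inducible promoters can have either configuration before stimulation.

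Occupancy values are fragments relative to the surrounding 1 kb, so that they describe where nucleosomes lie and not how many fragments a promoter has. The NDR was measured from −150 to 0 bp, and the +1, +2 and −1 nucleosomes within 50 bp of 135, 325 and −225 bp, the peaks in a separate pooled set of resting fibroblast libraries. The files hold no RNA of these cells, and the extent of knockdown was not measured here. Expression values given for resting fibroblasts come from a public data set outside this series. In these values all 10 fibroblast markers, collagen genes and Vim among them, were above the threshold for active promoters. Of 14 leukocyte markers with a promoter in the table only Cd14 and Cd74 were, and Cd3e and Tyrobp were at 0.

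The DNA of the NDR window is shown for 5 promoters that the results below refer to, each as 150 bases of the mm9 genome, 5′ to 3′ on the strand of the gene and ending 1 base before the TSS. Smarca4 is the promoter of a gene that the shRNA targets, and Gpr31b, Gatad2a and Actr1b are those with the smallest p for NDR occupancy. Ccl7 is an inducible promoter with a TATA box. Capitals mark CG dinucleotides, except in Ccl7, where they mark TATAAA at −31 bp.
Smarca4 (chr9:21420464-21420613, + strand): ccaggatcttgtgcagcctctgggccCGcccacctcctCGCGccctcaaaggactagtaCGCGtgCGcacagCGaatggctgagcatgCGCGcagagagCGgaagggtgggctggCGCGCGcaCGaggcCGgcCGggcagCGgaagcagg
Gpr31b (chr17:13245147-13245296, − strand): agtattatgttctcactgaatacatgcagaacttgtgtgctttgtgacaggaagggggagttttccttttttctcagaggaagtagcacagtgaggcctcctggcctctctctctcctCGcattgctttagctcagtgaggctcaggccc
Gatad2a (chr8:72498283-72498432, − strand): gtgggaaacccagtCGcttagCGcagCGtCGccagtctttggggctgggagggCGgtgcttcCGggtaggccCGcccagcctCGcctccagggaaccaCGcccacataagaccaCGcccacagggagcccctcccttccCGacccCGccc
Actr1b (chr1:36766771-36766920, − strand): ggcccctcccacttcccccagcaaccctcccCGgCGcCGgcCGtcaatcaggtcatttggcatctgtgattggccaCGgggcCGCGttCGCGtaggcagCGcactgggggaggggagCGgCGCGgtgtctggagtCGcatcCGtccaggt
Ccl7 (chr11:81859065-81859214, + strand): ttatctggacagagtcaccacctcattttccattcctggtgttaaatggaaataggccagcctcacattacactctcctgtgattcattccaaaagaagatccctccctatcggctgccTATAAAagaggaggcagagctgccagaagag

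These windows were not chosen to represent sequence types, and they differed in their number of CG dinucleotides. Smarca4 has 17 CG dinucleotides, Actr1b 15 and Gatad2a 12, compared with a median of 13 in active CpG-island (CGI) promoters. Gpr31b and Ccl7 have 1 each, and inactive promoters have a median of 2. TATAAA on either strand was found in this window in 5.42% of all promoters, 3.00% of active and 11.8% of inactive promoters. GGGCGG on either strand, the core of GC boxes, was found in Smarca4 and Gatad2a and in 42.5% of all promoters. CCAAT on either strand was found in Actr1b and in 26.3% of all promoters.

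The typical arrangement of active promoters was present in both BAF-knockdown libraries. At the 6397 active promoters, the mean profile had its +1 peak at 135 bp in each of the 4 libraries. The NDR ratio, which is mean occupancy in the NDR divided by that from −1000 to −500 bp, was 0.699 and 0.535 in control replicates 1 and 2, and 0.662 and 0.677 in BAF-knockdown replicates 1 and 2. Both BAF-knockdown values lay between those of the controls. The difference of 0.0525 was smaller than the pooled SD of replicates of 0.0821 (n = 2 per group), and an exact permutation test of 2 against 2 cannot go below p = 0.333.

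**Figure D1:**
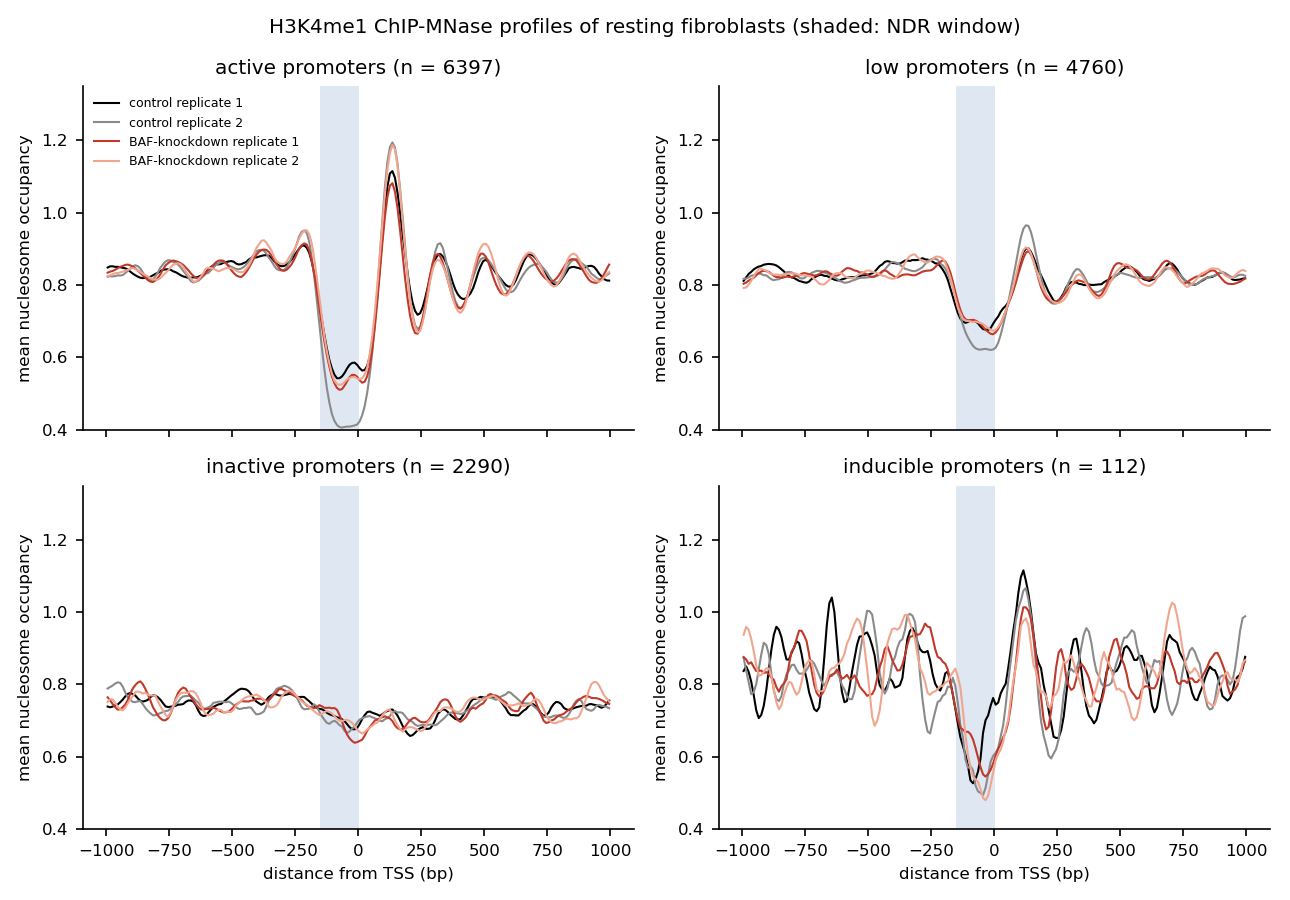
Mean nucleosome occupancy (vertical axis, relative to the surrounding 1 kb) against distance from the TSS in bp, for active, low, inactive and inducible promoters, with a line for each of the 4 resting libraries. The NDR window is shaded, and in active promoters control replicate 2 reached 0.410 at −25 bp, below the other libraries at 0.545 to 0.584.

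The libraries differed inside the NDR more than beside it. At −25 bp of active promoters mean occupancy was 0.584 and 0.410 in controls, and 0.551 and 0.545 in BAF-knockdown cells. At the +1 peak, 135 bp, it was 1.11 and 1.19 in controls, and 1.08 and 1.19 in BAF-knockdown cells. Control replicate 2 thus had the deepest NDR, and BAF-knockdown replicate 1 the lowest +1 peak. Active promoters without any fragment in the NDR window made up 14.9% and 31.2% in controls, and 13.4% and 20.4% in BAF-knockdown cells. The share of all bins with a fragment, the only measure of depth in the values, was 74.9% and 69.7% in controls, and 78.1% and 67.9% in BAF-knockdown cells, and its part in these values was not tested. The deposited names carry the tag 04U for BAF-knockdown replicate 1 and 12U for the other 3 libraries, a difference whose part was not tested either. Another tag in the names is shared by all libraries of the same replicate number and differs between the numbers, and its meaning is not given in the labels. Also in the libraries with TNF-α, replicate 1 had more filled bins (73.4% and 76.0%, against 63.5% and 68.3% in replicate 2). Within replicate numbers, the NDR ratio of active promoters differed between BAF-knockdown and control cells by −0.0367 for replicate 1 and 0.142 for replicate 2, in opposite directions.

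The same order of libraries was found in CGI and non-CGI promoters and at each expression level. Active CGI promoters (n = 4938) had NDR ratios of 0.655 and 0.464 in controls, and 0.614 and 0.628 in BAF-knockdown cells. Active non-CGI promoters (n = 1458) had shallower NDRs, with 0.852 and 0.783 in controls, and 0.831 and 0.848 in BAF-knockdown cells. In both classes the BAF-knockdown values lay between the controls. In each of 5 groups of active promoters by expression, both BAF-knockdown libraries again lay between the controls. In the highest group NDR ratios were 0.680 and 0.511 in controls, and 0.649 and 0.663 in BAF-knockdown cells.

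**Figure D2:**
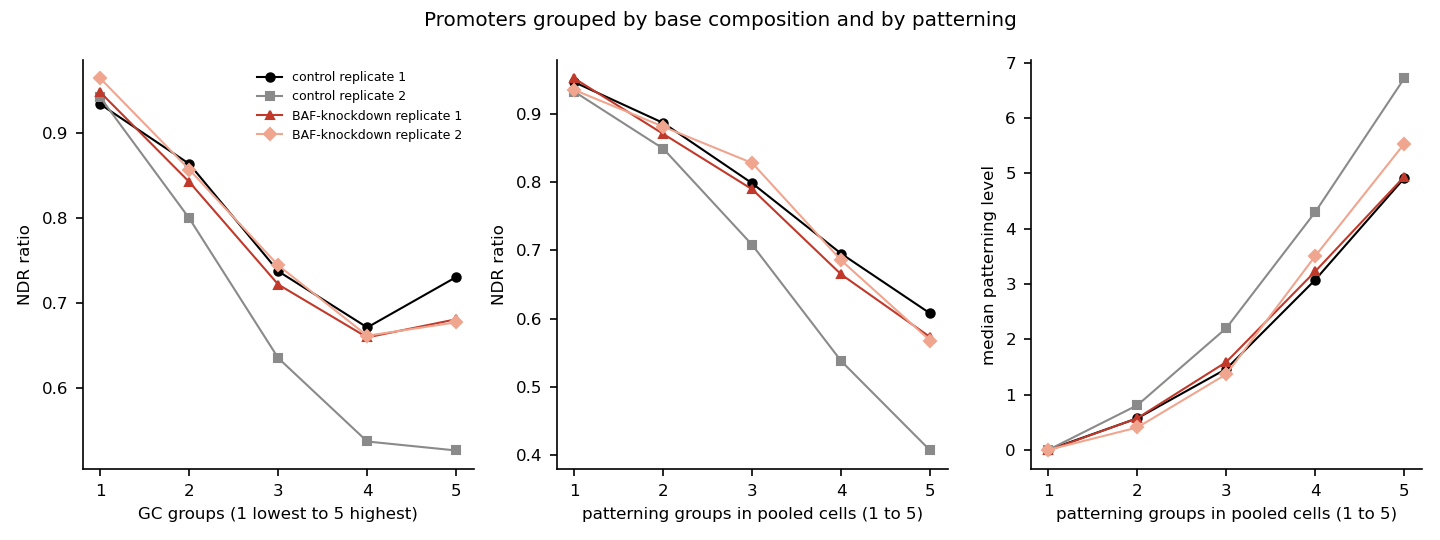
NDR ratio of each resting library for 5 groups of promoters by GC content within 200 bp of the TSS (left) and by patterning level in the pooled set (middle), and median patterning level in the latter groups (right). Control replicate 2 has the lowest NDR ratio in GC groups 2 to 5 and in all 5 patterning groups.

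When all high coverage promoters were ranked by GC content, the group with the lowest GC (median 46.9%) had NDR ratios of 0.934 and 0.942 in controls, and 0.948 and 0.965 in BAF-knockdown cells, so that these groups did not overlap. In the group with the highest GC (median 72.3%), they were 0.731 and 0.527 in controls, and 0.681 and 0.678 in BAF-knockdown cells. In the quintile with the strongest patterning in the pooled set NDR ratios were 0.607 and 0.406 in controls, and 0.573 and 0.568 in BAF-knockdown cells. In the quintile with the weakest patterning they were 0.947 and 0.933, and 0.952 and 0.935, so that each of the 4 libraries had a lower NDR ratio in the strongly patterned quintile. Median patterning levels in the strongest quintile were 4.91 and 6.72 in controls, and 4.94 and 5.54 in BAF-knockdown cells. The patterning level is the agreement of a promoter's profile with the mean profile of active promoters, where 0 stands for no agreement.

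Nucleosomes flanking the NDR of active promoters differed little. Mean occupancy at +1 was 1.01 and 1.07 in controls, and 0.969 and 1.06 in BAF-knockdown cells, and that at −1 was 0.882 and 0.903, and 0.881 and 0.915. At both positions the groups overlapped. Within replicate numbers, the BAF-knockdown library was lower at +1 both times, by differences of −0.0369 for replicate 1 and −0.0107 for replicate 2. At +2 occupancy was 0.849 and 0.852 in controls, and 0.835 and 0.825 in BAF-knockdown cells, a difference of −0.0205 with both BAF-knockdown libraries below both controls (two-sided exact permutation test, p = 0.333, the smallest possible). With the square root of occupancy this difference was −0.00411 with a pooled SD of 0.0388, and with a trimmed mean −0.0130 with a pooled SD of 0.0217, both smaller than the spread between replicates. The nucleosomal period of active promoters was 180.0 and 177.7 bp in controls, and 174.9 and 176.3 bp in BAF-knockdown cells, again without overlap, whereas over all promoters it was 180.7 and 177.1 bp, and 176.4 and 178.5 bp, and overlapped. The median position of the first nucleosome peak downstream of the TSS was 105 and 125 bp in controls, and 105 and 115 bp in BAF-knockdown cells.

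**Figure D3:**
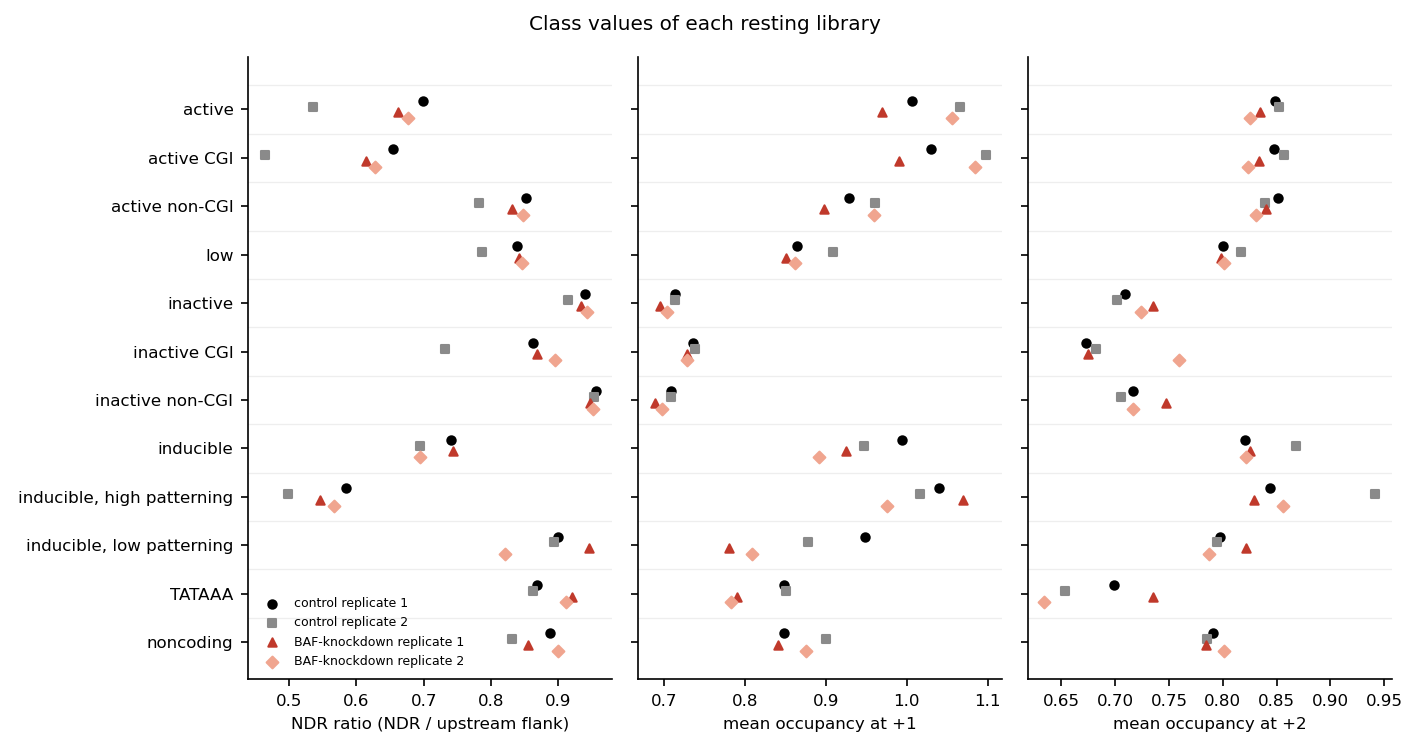
NDR ratio, and mean occupancy at the +1 and +2 nucleosomes (horizontal axes), for 12 promoter classes in each of the 4 resting libraries. BAF-knockdown values of active promoters lie between the controls for the NDR ratio and below both for +2, and those of TATAAA promoters lie above both controls for the NDR ratio and below both for +1.

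Promoters of genes without expression had shallower NDRs in each library. Inactive promoters (n = 2290) had NDR ratios of 0.939 and 0.915 in controls, and 0.933 and 0.942 in BAF-knockdown cells, with overlap. Their occupancy at +1 was 0.713 and 0.714 in controls, and 0.695 and 0.703 in BAF-knockdown cells, and that at +2 was 0.709 and 0.701 in controls, and 0.735 and 0.724 in BAF-knockdown cells, both without overlap and in opposite directions. The few inactive CGI promoters (n = 395) had NDR ratios of 0.862 and 0.732 in controls, and 0.868 and 0.895 in BAF-knockdown cells. Low promoters (n = 4760), whose expression is above 0 but below the threshold for active ones, had 0.838 and 0.787, and 0.841 and 0.846. In both classes the BAF-knockdown values lay above the controls, and closer to control replicate 1 than the controls lay to each other.

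Across 28 partly overlapping classes, both BAF-knockdown libraries lay above both controls in NDR ratio in 4 (14.3%) and below in 1 (3.57%). Occupancy at +1 was below both controls in 10 classes (35.7%) and above in 0. That at +2 was below in 11 (39.3%) and above in 1 (3.57%), and that at −1 was above in 2 (7.14%) and below in 1 (3.57%). Median patterning levels were below in 8 (28.6%) and above in 0. These classes share promoters and the same 4 libraries, so that they are not independent, and no class could pass a test of 2 against 2.

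A class chosen by sequence differed in its mean values at both the NDR and +1. At 228 promoters with TATAAA between −40 and −15 bp, the NDR ratio was 0.869 and 0.862 in controls, and 0.919 and 0.911 in BAF-knockdown cells, a difference of 0.0502 with a pooled SD of 0.00543. Occupancy at +1 was 0.848 and 0.850 in controls, and 0.790 and 0.782 in BAF-knockdown cells, a difference of −0.0629 with a pooled SD of 0.00374. Among promoters with a score above 200 this +1 difference was −0.0144 with a pooled SD of 0.0334, smaller than the spread between replicates, and the difference in NDR ratio was 0.0584 with a pooled SD of 0.0358. Median patterning levels were 0.721 and 0.284 in controls, and 0 and 0.125 in BAF-knockdown cells. Mean occupancy at −1 of the 222 tested promoters was 0.905 and 0.844 in controls, and 0.865 and 0.863 in BAF-knockdown cells, with overlap. For the NDR ratio, +1 and the median patterning level over the 228 promoters, both BAF-knockdown libraries lay beyond both controls. Single members did not show this beyond the shares of all promoters. Of 222 tested, 17.6% lay above both controls in NDR occupancy and 15.8% below, compared with 18% and 13.4% of all promoters. For +1 the shares were 13.5% and 16.7%, compared with 15.6% and 17%, with a median difference of 0. The class was singled out after its values were seen, so no test is given. With TNF-α the difference in NDR ratio between the same cell types was −0.160, in the opposite direction.

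At inducible promoters the NDR differed by less than the spread between replicates. The 112 promoters induced by TNF-α had NDR ratios of 0.741 and 0.694 in controls, and 0.743 and 0.694 in BAF-knockdown cells, a difference of 0.00125 with a pooled SD of 0.0338. Those with high patterning in the pooled set (n = 56) had 0.585 and 0.498 in controls, and 0.546 and 0.566 in BAF-knockdown cells. Those with low patterning (n = 56) had 0.899 and 0.893 in controls, and 0.945 and 0.820 in BAF-knockdown cells. The separation of high-patterning and low-patterning promoters was thus present in each of the 4 libraries.

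Within the inducible class, groups did not overlap at the +1 nucleosome of low-patterning promoters. Their occupancy at +1 was 0.948 and 0.877 in controls, and 0.780 and 0.808 in BAF-knockdown cells, a difference of −0.118 with a pooled SD of 0.0379, and both BAF-knockdown libraries lay below both controls. With the square root of occupancy it was −0.0539 with a pooled SD of 0.0591. In high-patterning promoters it was 1.04 and 1.02 in controls, and 1.07 and 0.975 in BAF-knockdown cells, with overlap. The difference between these differences was not tested. The share of high-patterning promoters whose level exceeded the median of low-patterning promoters was 73.2% in both controls (95% Wilson interval 60.4% to 83.0%), and 82.1% (70.2% to 90.0%) and 67.9% (54.8% to 78.6%) in BAF-knockdown cells. The intervals, which cover counting error only, overlap.

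Single inducible promoters gave 0 calls at an adjusted p below 0.05 (limma, Benjamini-Hochberg over all 13309 promoters) for NDR, +1, −1 or patterning. For NDR occupancy, 1 inducible promoter was higher and 3 were lower at an unadjusted p below 0.05, or 3.57% of 112 compared with 5.36% of all promoters. Slc25a25, a mitochondrial ATP-Mg/phosphate carrier, had NDR occupancies of 1.53 and 0.924 in controls, and 0.156 and 0.0984 in BAF-knockdown cells (difference −1.10, SE 0.252, limma adjusted p = 0.640). Rnd1 had 0.333 and 0.375 in controls, and 0.158 and 0 in BAF-knockdown cells (adjusted p = 0.790). Phlda1, a pleckstrin-homology-like protein induced by growth factors, had 0.517 and 0.185 in controls, and 1.11 and 1.34 in BAF-knockdown cells (adjusted p = 0.869). For Slc25a25, Rnd1 and Phlda1, BAF-knockdown values lay beyond both controls, but none of these differences passed the threshold. The TATA-containing Ccl7, a chemokine, had 0.106 and 0.429 in controls, and 0.957 and 0.892 in BAF-knockdown cells (adjusted p = 0.908). At the inducible Plau, which encodes urokinase, +1 occupancy was 0.986 and 0.789 in controls, and 2.08 and 2.23 in BAF-knockdown cells (adjusted p = 0.962).

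Single promoters were then tested across the whole set, with the 4 TNF-α-treated libraries added only to estimate the spread. For NDR occupancy, 1 promoter of 13309 (0.00751%) had an adjusted p below 0.05. For +1, −1 and patterning the count was 0 (0%) by limma, and at an unadjusted p below 0.05 there were 713 promoters (5.36%) for the NDR, 642 (4.82%) for +1, 608 (4.57%) for −1 and 622 (4.67%) for patterning. Of all promoters tested, 3.16% were higher and 2.2% lower in BAF-knockdown cells at this p for the NDR, 2.26% and 2.56% for +1, 2.43% and 2.13% for −1, and 1.98% and 2.69% for patterning. A single promoter's NDR difference had a median SE of 0.369, compared with mean NDR levels of 0.569 to 0.655 in the 4 libraries, so that moderate differences at single promoters were not detectable. Values were also simulated from a normal distribution with each promoter's mean and spread over the 8 libraries, floored at 0. An added NDR occupancy of 1 was recovered at 6% of 50 changed promoters, of 2 at 18% and of 4 at 70%. Decreases were not simulated. Measured values were often exactly 0 and are not normal, so that these shares need not hold for them. A missing call thus does not exclude a large difference at a promoter. In 100 bp windows the count was 0 of 266180, with 12618 (4.74%) at an unadjusted p below 0.05, and in 10 bp bins of 7 class profiles it was 0 of 1400, with 97 (6.93%).

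NDR occupancy was above both controls in both BAF-knockdown libraries at 2396 promoters (18%) and below at 1789 (13.4%). In active promoters the shares were 18.5% and 12.1%, and in inactive promoters 16.2% and 14.7%. For patterning the order was inverted, with 2030 (15.3%) above and 2444 (18.4%) below. For +1 there were 2077 (15.6%) above and 2266 (17%) below, and for −1 2198 (16.5%) and 2063 (15.5%). Groups thus did not overlap at 31.4% of promoters for the NDR, 32.6% for +1, 32% for −1 and 33.6% for patterning. If library labels were exchangeable, groups of 2 and 2 would separate fully with a probability of 0.333. The shares without overlap were close to this. The windows with the most promoters at an unadjusted p below 0.05 lay from −100 to 0 bp, where 4.26% were higher and 2.93% lower. From 100 to 200 bp, at the +1 nucleosome, 2.80% were higher and 3.27% lower. The direction of this surplus changed with the library left out. At an unadjusted p below 0.05, 239 promoters were higher and 650 lower without control replicate 2, and 340 were higher and 453 lower without control replicate 1. Without BAF-knockdown replicate 1 there were 762 higher and 260 lower, and without BAF-knockdown replicate 2 there were 603 and 184, so that the more frequent direction followed the group left with 1 library. The mean NDR difference over promoters was 0.0327 with all libraries, −0.0101 without control replicate 2 and 0.0755 without control replicate 1, and the corresponding medians were 0.0244, 0.0104 and 0.105.

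**Figure D4:**
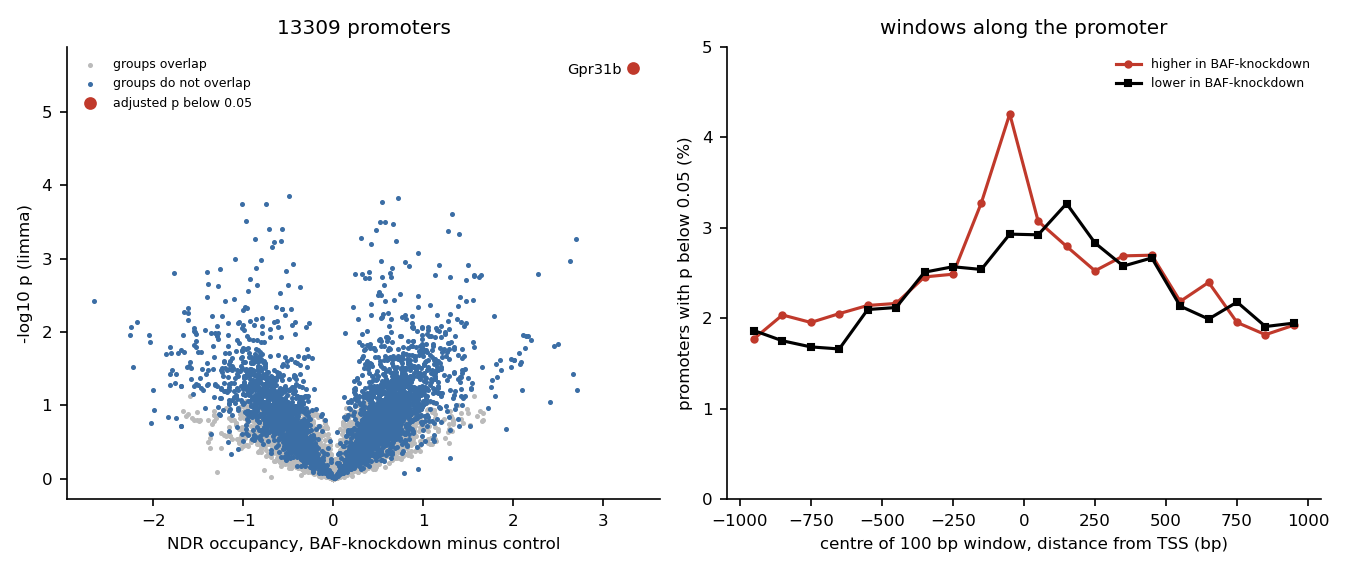
Left, −log10 p against the difference in NDR occupancy (BAF-knockdown minus control) for 13309 promoters, where blue points have no overlap between groups and the red point is the call past the threshold. Right, percentage of promoters with an unadjusted p below 0.05 in 100 bp windows along the promoter, highest at 4.26% from −100 to 0 bp for values higher in BAF-knockdown cells.

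The called promoter was Gpr31b (NM_001013832, TSS at chr17:13245146), an inactive non-CGI promoter of a gene for a G-protein-coupled receptor. Its NDR occupancy was 0 and 0 in controls, and 3.33 and 3.33 in BAF-knockdown cells (difference 3.33, SE 0.233, limma adjusted p = 0.0331). Few fragments lie behind these values: 15 and 10 of 200 bins were filled in controls, and 20 and 20 in BAF-knockdown cells. Occupancy of a bin reached at most 10 in each library. The same value of 3.33 was also found at Ep400 in control replicate 2 and at Ifit3 in BAF-knockdown replicate 2. With TNF-α the occupancy was 0 in all 4 libraries. The call was lost with the replicate number as a block (adjusted p = 0.193, limma here and below), with only the 4 resting libraries (0.869), with the square root of occupancy (0.240), with a window from −200 to 50 bp (0.342) and without control replicate 1 (0.0557). When at least 50 filled bins were required in each of the 8 libraries, an option chosen after seeing the data that left 13026 promoters, Gpr31b dropped out and the count was 0.

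Other promoters with the smallest p for higher NDR occupancy, none past the threshold, were Gatad2a, Alkbh6, Itsn2 and Wdr20, all of them active CGI promoters. Gatad2a encodes a subunit of the NuRD remodelling complex, and its values were 0.0491 and 0 in controls, and 0.744 and 0.747 in BAF-knockdown cells (adjusted p = 0.360 by limma, as for the other 3). Itsn2 encodes an endocytic scaffold, with 0 and 0.04 in controls, and 1.36 and 1.32 in BAF-knockdown cells. Alkbh6 encodes an AlkB-type dioxygenase, with 0 and 0 in controls, and 0.492 and 0.592 in BAF-knockdown cells. Wdr20, a cofactor of deubiquitinases, had 0 and 0, and 0.457 and 0.578. In these promoters fragments within the NDR were nearly absent from the controls and present in both BAF-knockdown libraries.

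Among promoters with lower values the reverse held, and all 5 were at 0 in both BAF-knockdown libraries. Actr1b, a subunit of the dynein cofactor dynactin, had 0.468 and 0.515 in controls, and Hddc2 had 0.832 and 0.665. Kcnk3, an acid-sensitive potassium channel, had 0.919 and 1.10, Fam168a 0.833 and 1.11, and Zfyve26, a zinc-finger protein of endosomes and lysosomes, 0.833 and 0.583. The adjusted p was 0.360 for each (limma). In the 10 promoters named for the NDR, the library with the fewest filled bins had 10 to 111 of 200. With TNF-α all 10 were at 0 except Wdr20, at 0.0587 in 1 control library, and their SEs of 0.0642 to 0.233 were below the median SE over all promoters.

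**Figure D5:**
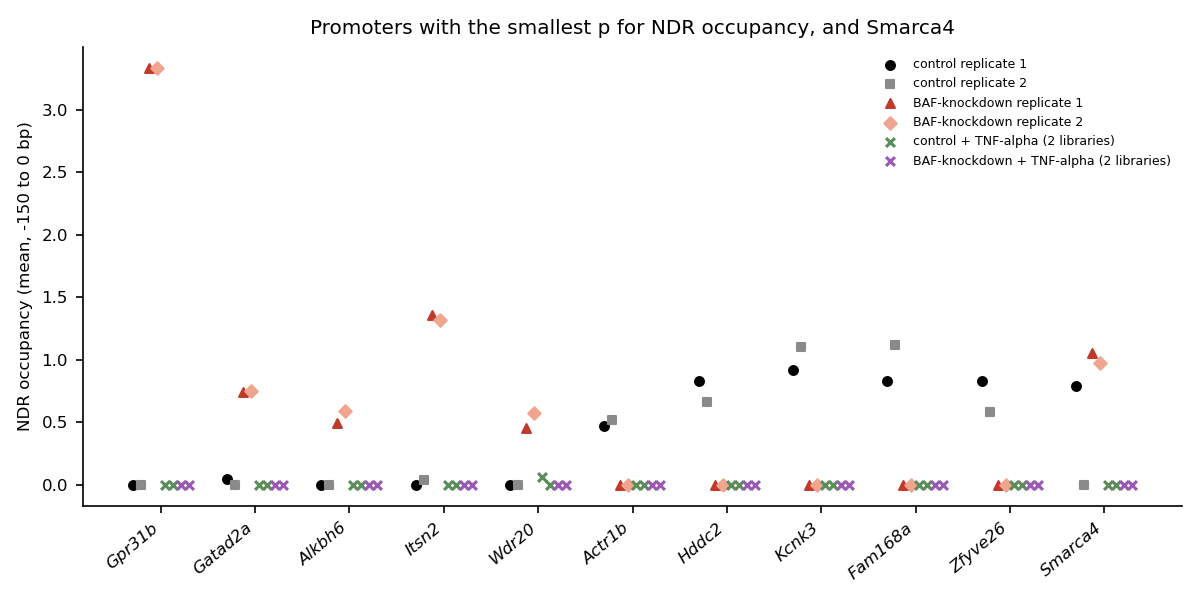
NDR occupancy (vertical axis) of the promoters with the smallest p in either direction and of Smarca4, with a symbol for each resting library and crosses for the 4 TNF-α-treated libraries. The resting BAF-knockdown libraries are the highest for Gpr31b at 3.33, whereas the crosses lie at 0 or near it throughout.

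For the +1 nucleosome, the smallest p belonged to Ccdc71l, with 0 and 0 in controls, and 0.863 and 1.14 in BAF-knockdown cells (limma adjusted p = 0.518). At Zfp574, a zinc-finger gene, +1 occupancy was 0 and 0 in controls, and 2.52 and 2.45 in BAF-knockdown cells. It was also higher in BAF-knockdown cells after TNF-α, with 0 and 0 in controls, and 2.35 and 1.76 in BAF-knockdown cells. The same held for Gon4l, at 0 in all 4 controls and at 4.29 in all 4 BAF-knockdown libraries, but few fragments lie behind these values. Without TNF-α, 10 and 11 bins of Gon4l were filled in controls, and 24 and 21 in BAF-knockdown cells. With TNF-α, 10 and 10 were filled in controls, and 30 and 13 in BAF-knockdown cells. The least filled library of Zfp574 had 96 filled bins. The part of sparse coverage in the identical values of Gon4l was not tested. Timp1, an inhibitor of matrix metalloproteinases, had the smallest p among lower values, with 1.46 and 1.11 in controls, and 0.0424 and 0.127 in BAF-knockdown cells (adjusted p = 0.747). Larp4, an RNA-binding protein, had 1.14 and 1.03, and 0 and 0.0409. None of these passed the threshold.

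For the −1 nucleosome, Nr2f1, a nuclear receptor, had 3.32 and 4.04 in controls, and 0.00909 and 0 in BAF-knockdown cells (difference −3.67, SE 0.387, limma adjusted p = 0.348). It was at 0 in all 4 libraries with TNF-α. Asph, an aspartyl hydroxylase, had 0.604 and 0.704 in controls, and 0 and 0 in BAF-knockdown cells. Higher values were found at Ceacam1, a cell adhesion molecule, with 0 and 0 in controls, and 2.00 and 2.27 in BAF-knockdown cells. For Asph and Ceacam1 the adjusted p was 0.405.

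In patterning level, Lonp2, a peroxisomal protease, had 9.51 and 8.11 in controls, and −14.3 and −16.0 in BAF-knockdown cells (limma adjusted p = 0.439). Hes6, a transcriptional regulator of the Hes family, had 17.2 and 25.1 in controls, and −0.139 and −0.927 in BAF-knockdown cells (adjusted p = 0.984). Kcnma1, a calcium-activated potassium channel, had −11.9 and −6.23, and 6.72 and 14.5 (adjusted p = 0.984). Opposite signs between groups thus occurred in both directions. Of the 5 promoters named in each direction, the difference after TNF-α had the same sign in 0 and 0 for the NDR, 3 and 0 for +1, 2 and 2 for −1, and 4 and 2 for patterning, for higher and lower promoters respectively. A difference of 0 after TNF-α has no sign and was counted as not the same. For the NDR, all values with TNF-α were 0 except in a control library of Wdr20, so that elsewhere no sign could be compared. Some promoters named for +1 and −1, such as Ccdc71l and Nr2f1, were also at 0 with TNF-α. These libraries entered the estimate of spread, so that values of 0 there favoured a small p. A test of whether the BAF-knockdown difference changed with TNF-α called 0 of 13309 promoters by limma for each measure, with 733 (5.51%) at an unadjusted p below 0.05 for the NDR, 728 (5.47%) for +1, 687 (5.16%) for −1 and 671 (5.04%) for patterning.

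The promoters of the targeted and related remodelling genes were examined next. Smarca4 was a high coverage promoter (score 283), whereas both Smarca2 promoters had scores of 49 and 33.8 and were not included. NDR occupancy of Smarca4 was 0.787 and 0 in controls, and 1.05 and 0.973 in BAF-knockdown cells (difference 0.62, SE 0.291, limma adjusted p = 0.908). Of 27 genes of the BAF complex, 14 promoters were tested and 0 were called for any measure. For the NDR 1 was higher at an unadjusted p below 0.05 (7.14%, compared with 3.16% of all promoters). Both BAF-knockdown libraries lay above both controls in 3 (21.4%, compared with 18% of all promoters) and below in 0 (compared with 13.4%). Groups without overlap thus made up 21.4%, compared with 31.4% of all promoters. The median difference of the 14 promoters was 0.179, compared with 0.0244 over all promoters. The median NDR occupancy of these promoters was 0.419 and 0 in controls, and 0.574 and 0.274 in BAF-knockdown cells, so that the groups overlapped and control replicate 2 was the lowest. Ss18, a subunit that associates with the ATPase, had 0.439 and 0.733 in controls, and 2.30 and 1.64 in BAF-knockdown cells (adjusted p = 0.889). Smarcc2, a scaffold subunit, had 0 and 0, and 1.17 and 0.548. Among 7 promoters of other remodellers the median difference was −0.279, with 1 above both controls (14.3%) and 2 below (28.6%), compared with 18% and 13.4% of all promoters. Rsf1, a subunit of an ISWI complex, had 0.110 and 0 in controls, and 1.48 and 0.709 in BAF-knockdown cells.

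Promoters of the TNF and NF-κB response and of immediate early genes were divided between both directions. Those of the interferon response without overlap were all higher, but their share was below that of higher ones among all promoters. Of 32 promoters of the TNF and NF-κB response, 5 lay above both controls (15.6%, compared with 18% of all promoters) and 4 below (12.5%, compared with 13.4%), with a median NDR difference of 0.0345. Icam1, an adhesion receptor for leukocytes, had 2.39 and 2.21 in controls, and 1.11 and 1.32 in BAF-knockdown cells (limma adjusted p = 0.888). Cxcl10, a chemokine, had 0.103 and 0, and 0.470 and 0.518. Of 13 promoters of AP-1 and immediate early genes, 1 lay above (7.69%, compared with 18% of all promoters) and 2 below (15.4%, compared with 13.4%). Myc, a transcription factor of growth control, had 1.33 and 1.36 in controls, and 0.564 and 0 in BAF-knockdown cells. In 26 interferon response promoters, 4 lay above (15.4%, compared with 18% of all promoters) and 0 below (compared with 13.4%). Groups without overlap thus made up 15.4%, compared with 31.4% of all promoters. The median difference was 0.0292, compared with 0.0244 over all promoters. Irf9, the DNA-binding subunit of the ISGF3 complex, had 0.476 and 0 in controls, and 1.501 and 2.09 in BAF-knockdown cells (adjusted p = 0.447). Ifih1, a sensor of double-stranded RNA, had 0.791 and 0.597, and 1.41 and 2.40. None of the promoters in these 3 lists was called for the NDR, +1, −1 or patterning.

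Structural and lineage genes gave 0 calls as well. Of 35 promoters of cytosolic ribosomal proteins, 11 lay above both controls in NDR occupancy (31.4%, compared with 18% of all promoters) and 5 below (14.3%, compared with 13.4%), with a median difference of 0.223. Rpl35 had 0 and 0 in controls, and 0.730 and 1.20 in BAF-knockdown cells, whereas Rpl18 had 0.168 and 0.604, and 0 and 0. In control replicate 2 the median NDR occupancy of these promoters was 0.02, compared with 0.287 in control replicate 1, and 0.536 and 0.437 in BAF-knockdown cells. Of 21 fibroblast matrix promoters, 5 lay above (23.8%) and 5 below (23.8%), against the same 18% and 13.4% of all promoters, with a median of −0.0627. Dcn, the proteoglycan decorin, had 1.70 and 0.931 in controls, and 0.212 and 0.719 in BAF-knockdown cells, and Lox, a collagen cross-linking enzyme, had 0 and 0, and 0.271 and 0.557. Of 15 actin cytoskeleton promoters 3 lay above (20%, compared with 18% of all promoters) and 4 below (26.7%, compared with 13.4%), with a median of 0.155. Of 21 cell cycle promoters 4 lay above (19%, compared with 18%) and 2 below (9.52%, compared with 13.4%), with a median of −0.0647. Of 19 promoters of Polycomb targets and lineage regulators, 5 lay above (26.3%, compared with 18% of all promoters) and 0 below (compared with 13.4%), with a median of 0.204. Runx1 had 0.165 and 0.391 in controls, and 0.717 and 1.06 in BAF-knockdown cells. Of 13 promoters of leukocyte markers, 0 lay above (compared with 18% of all promoters) and 5 below (38.5%, compared with 13.4%), with a median of −0.250, and Lyz2, lysozyme of myeloid cells, had 1.01 and 0.860, and 0.308 and 0.602. Adjusted p-values for the NDR lay between 0.447 and 0.908 (limma) for the members named here from the gene lists.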

How the data were processed

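H3K4me1 ChIP-MNase libraries of 3T3 fibroblasts were compared as BAF knockdown against control without TNF-α, with 2 libraries each. The replicates are described as biological. According to the methods, the authors aligned single-end reads to mm9 with bowtie (the submitters' processing notes name Bowtie2 and bedtools), removed excess duplicates, extended reads to the mean fragment length, and deposited a signal per 10 bp bin from −1000 to 1000 bp of each TSS, with fragments relative to the surrounding 1 kb. Empty bins were read as 0. Because the deposited signal holds no counts, the sequencing depth is unknown, and the share of filled bins (67.9% to 78.1%) stands in for it. The deposited promoter table gives a coverage score (a signal of mapped fragments), expression as FPKM of resting fibroblasts, and a log2 induction by TNF-α. Expression and induction come from public data sets and from no sample of this series. The induction was used only to name inducible promoters (above 0.35) and not as a result. The paper also required a statistically significant increase, which was not tested here. Other columns of the authors' values (n = 2) were not used. Active promoters had FPKM above 0.02 times the mean. CGI promoters had over 50% GC and an observed to expected CpG ratio over 0.6 within 200 bp of the TSS.

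Occupancy per promoter was tested with limma 3.58.1 (trend, R 4.3.3) in 8 libraries of 4 groups, contrasting the 2 resting groups, with Benjamini-Hochberg adjustment over all promoters tested and a threshold of 0.05. Class values were compared by an exact permutation test over libraries. Scripts were tested on simulated data. Named promoters are the 5 with the largest difference in each direction among those past the threshold, or, where fewer than 5 passed, the 5 with the smallest p, together with the shRNA targets and up to 4 members of each of 11 gene lists with the smallest p for the NDR. Members, classes and lists were chosen with earlier results of these data known. Sequences were read from the mm9 genome. Alternatives were the square root of occupancy, scaling by library mean, a score above 200, no filter on empty promoters, centring within GC groups, a wider NDR window, trimmed means, only the 4 resting libraries, a replicate block and leaving out each library. A minimum of 50 filled bins in each library was added after seeing the data.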

Additional observations from a re-analysis of the deposited data

Results flagged for a closer look

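For 9 class values, both BAF-knockdown libraries lay on the same side of both controls without TNF-α, and on the opposite side with TNF-α. They were picked for this reversal from several measures in the 28 partly overlapping classes. The values that kept their direction are not given here, so that 9 is not a share. This opposition between the states was not tested. At TATAAA promoters the difference in NDR ratio was 0.0502 without and −0.160 with TNF-α, and that in median patterning level was −0.440 and 0.868. At inactive CGI promoters the difference in NDR ratio was 0.0852 and −0.0894. In promoters with the lowest GC content it was 0.0182 and −0.0260, and their median patterning level differed by −0.109 and 0.118. Median patterning levels of noncoding transcripts differed by −0.370 and 0.380. At the +2 nucleosome, the difference was 0.0241 and −0.0155 in inactive promoters, and −0.0187 and 0.0198 in the fourth patterning quintile. At the −1 nucleosome of the quintile with the weakest patterning it was 0.0130 and −0.0132.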

How the results depend on the processing

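The NDR call (1 promoter, Gpr31b) was lost, with a count of 0, with the square root of occupancy, with only the 4 resting libraries, with a window from −200 to 50 bp, and with at least 50 filled bins, which was chosen after seeing the data. Without a filter on empty promoters the count was 5 for the NDR and 3 for −1, and with the square root 2 bins of class profiles were called. Leaving out 1 library gave 0 to 67 calls for the NDR, 7 to 19 for +1, 14 to 30 for −1, 229 to 537 for 100 bp windows, and 0 to 13 for the change of the +1 difference with TNF-α. Each such fit leaves 1 library in a group, which is assumed to vary like the other groups. Of the 59 NDR calls without control replicate 2, 58 were lower in BAF-knockdown cells, whereas all 51 without BAF-knockdown replicate 1 and all 67 without BAF-knockdown replicate 2 were higher.

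The NDR ratio of active promoters differed by −0.0294 without control replicate 2 and by 0.134 without control replicate 1. With the square root, a score above 200 and a trimmed mean, respectively, the +2 difference of active promoters was −0.00411, −0.0280 and −0.0130 (pooled SD 0.0388, 0.00785 and 0.0217), the NDR ratio difference of TATAAA promoters was 0.0396, 0.0584 and 0.0416, and their +1 difference was −0.0430, −0.0144 and −0.0491 (pooled SD 0.0145, 0.0334 and 0.00811). The +1 difference of low-patterning inducible promoters was −0.0539 with the square root. That of all inducible promoters was −0.0180 with the square root and −0.121 with a score above 200. The cause of these shifts was not tested.

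With the replicate number as a block, the NDR count was 0, and other counts and differences stayed within the limits set for an unchanged result. Over promoters, deviations of same-numbered libraries had correlations of −0.00416 to 0.0185, too small to pair single promoters. Same-numbered libraries share a tag of unknown meaning, and in all 4 groups replicate 1 had more filled bins and fewer active promoters with an empty NDR than replicate 2. Whether the numbers mark a shared preparation is not given in the labels.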
